A study of Bos taurus with 14 samples.

Results

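The S100 calcium-binding genes were followed in peripheral blood neutrophils and liver of Holstein cattle (Bos taurus) around a supplementation with β-cryptoxanthin, a carotenoid that animals can convert to vitamin A. The genes were those whose array name, or whose symbol in brackets in the probe description, was S100A with a number or S100B. This gave 10 genes of the 5886 with a symbol on the array, each with 1 probe: S100A8 and S100A12, then S100A4, S100A7, S100A10, S100A11, S100A13, S100A14, S100A16 and S100B. S100A9, the partner of S100A8, had no probe by this rule and is not analysed here, and neither are S100A1, S100A2, S100A3 and S100A5. All animals, heifers or steers of unstated age, received an oral dose of 0.2 mg β-cryptoxanthin per kg of body weight on day 0. The 4 groups were neutrophils on day 7 and on day 0 from the same 4 animals (25, 26, 32 and 34), and liver on day 7 and on day 0 from 3 other animals (58, 61 and 66), 14 arrays in all. No animal without the carotenoid was analysed here, so the supplement and any other effect of the 7 days cannot be told apart.

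S100 proteins are small EF-hand proteins that bind calcium and mostly work as dimers. S100A8 and S100A9 together form calprotectin, which fills much of the neutrophil cytosol, carries arachidonic acid to the NADPH oxidase, withholds zinc and manganese from microbes and, once released, acts as an alarmin on TLR4 and on RAGE, the receptor encoded by AGER. S100A12 is a further alarmin of granulocytes and a RAGE ligand. The other members act mainly inside cells: S100A10 and S100A11 bind annexins at membranes, S100A4 binds non-muscle myosin in motile cells, S100A7 (psoriasin) is an antimicrobial protein of epithelia, S100A13 takes part in the leaderless release of FGF1, and S100B is abundant in glia. In a gene table of the RefSeq assembly ARS-UCD2.0, used for names and neighbours alone, 14 of the 15 S100A and S100B genes share a chromosome, all but S100B. S100A8, S100A12 and S100A9 follow each other directly there, as do S100A13, S100A14 and S100A16, and S100A11 lies next to S100A10.

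Each value below rests on 1 60-base probe, so the last 30 bases of the probes behind the main results are shown, read from the deposited array files, 5′ to 3′. Capitals mark AATAAA, the common polyadenylation signal, where it occurs.
S100A8: cccctggactcgtgcctgcagagtAATAAA
S100A12: ccctgaggctgccttacccgagggaagaga
S100A13: ctccccgcaAATAAAcgtttctccttgaaa
S100A11: ctcctgttagtAATAAAacaatattgtttt
S100A4: agacgtgagcaccatactgaacaagttcaa
The letters AATAAA occurred in the last 30 bases of 3 of the 10 S100 probes (30%) and of 1432 of all 15011 probe sequences (9.54%). On the other strand, searched as TTTATT, they occurred in 0 of the 10 and in 293 of all (1.95%). The S100A8, S100A16 and S100B probes carry other names in the files and were identified through the symbol in their description.

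Levels are log2 of the processed Cy3 signal minus the array's 75th percentile, so that a positive level lies above the 75th percentile of the array, and the level of one probe is not set against that of another. Neutrophil arrays had 57.1 to 71.6% of their spots well above background, the scanner software's test of a spot against its surroundings, and liver arrays had 62.7 to 76.7%. One array stood apart: animal 34, neutrophils, day 7, had the lowest median signal (48.2, the other 3 neutrophil samples of that day having 100.2 to 162.9). All neutrophil arrays lay on 1 slide and all liver arrays on another, so tissue and slide cannot be told apart. On both slides day 7 filled one row of arrays and day 0 the other, so day and position on the slide cannot be told apart either. The samples are bulk RNA, in which fewer cells of a type and less RNA per cell cannot be told apart. No S100 spot was saturated.

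S100A8 and S100A12 were among the transcripts that differed most between neutrophils and liver. S100A8 had levels of 6.95, 7.92, 8.17 and 8.43 on day 7 and of 7.43, 7.58, 7.41 and 7.73 on day 0 in neutrophils of animals 25, 26, 32 and 34. In liver of animals 58, 61 and 66 its levels were -3.82, -2.49 and -2.97 on day 7 and -3.41, -2.09 and -2.52 on day 0. Every neutrophil array was far above every liver array, and in liver animal 58 was lowest and animal 61 highest on both days. The log2 difference, neutrophils minus liver, was 10.96 ± 0.45 on day 7 (SE; limma, adjusted p = 2.02e-07), a 1995-fold higher mean and rank 5 of the 10208 probes tested. On day 0 it was 10.21 ± 0.30 (limma, adjusted p = 2.67e-08), a 1185-fold higher mean and rank 12 of 11498. Standard errors of differences are those of the limma fits, moderated over all probes.

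S100A12 showed the same separation. Its levels were 8.38, 8.74, 9.26 and 9.55 on day 7 and 8.71, 8.86, 8.63 and 9.01 on day 0 in neutrophils of animals 25, 26, 32 and 34. In liver of animals 58, 61 and 66 they were -1.15, -0.28 and -0.78 on day 7 and -1.08, 0.07 and -0.43 on day 0. The order of the liver animals was again 58, 66, 61 from low to high on each day. The difference was 9.72 ± 0.36 on day 7 (rank 17; adjusted p = 1.34e-07 by limma) and 9.28 ± 0.27 on day 0 (rank 24; adjusted p = 2.57e-08), which are 843-fold and 623-fold higher means in neutrophils.

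**Figure D1:**
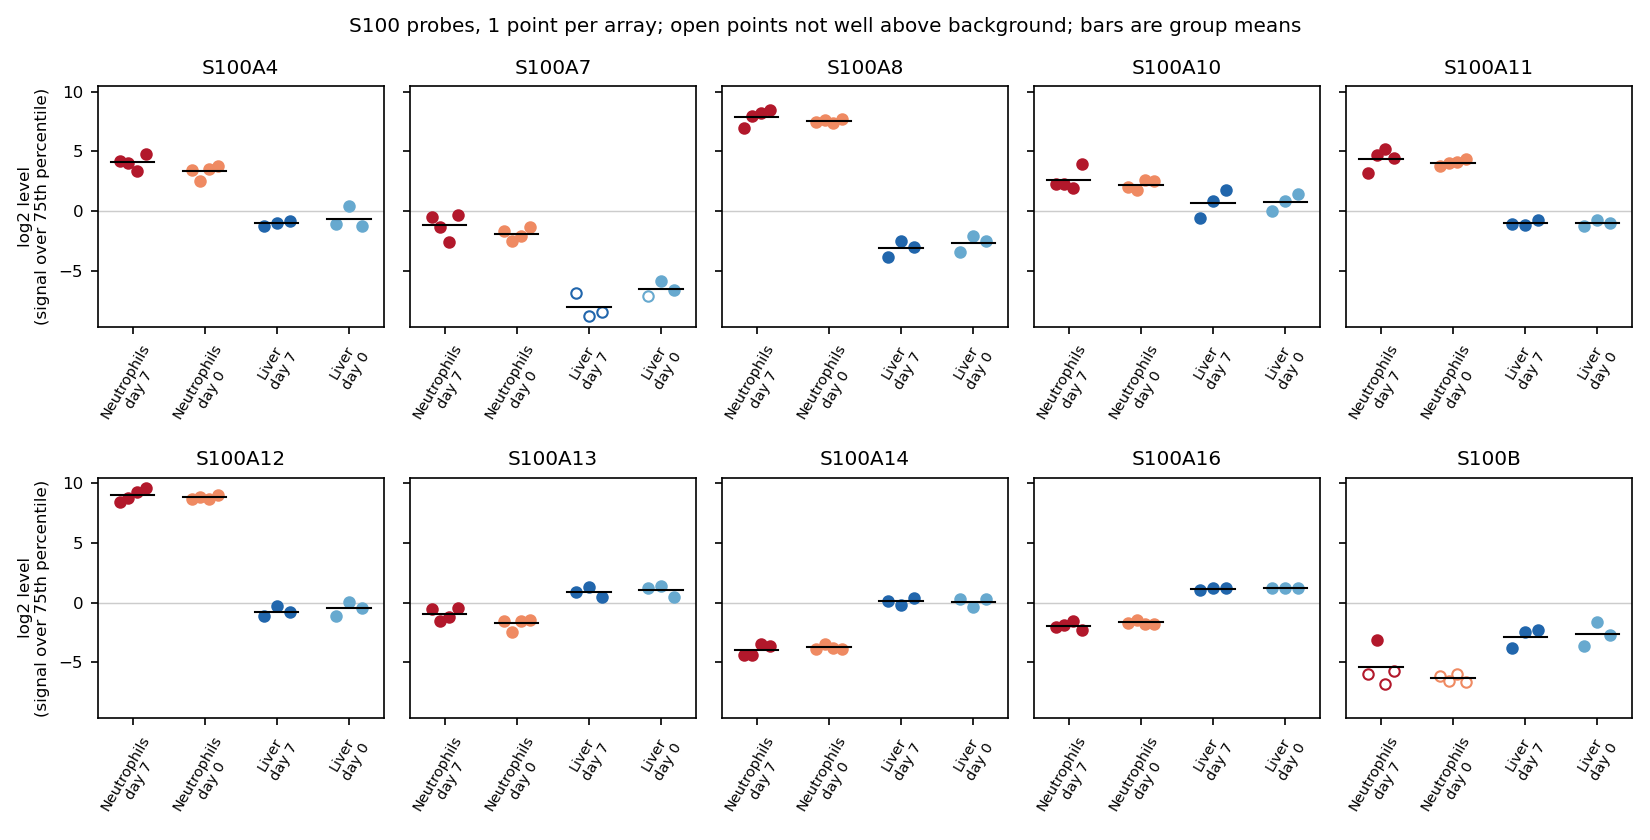
Level of each S100 probe on each array (log2 of signal over the array's 75th percentile, y axis) in neutrophils on day 7 and day 0 and in liver on day 7 and day 0 (x axis, left to right). Points are arrays, open where not well above background, and bars are group means; S100A8 lies between 6.95 and 8.43 in neutrophils and between -3.82 and -2.09 in liver, while S100A13, S100A14, S100A16 and S100B are lower in neutrophils.

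Another 4 members were higher in neutrophils. S100A11, an annexin A1 partner, averaged 4.36 ± 0.86 on day 7 and 4.06 ± 0.24 on day 0 in neutrophils (SD, n = 4), against levels of -1.14 to -0.77 on day 7 and -1.20 to -0.75 on day 0 in the 3 livers, a difference of 5.36 ± 0.46 on day 7 and 5.06 ± 0.19 on day 0 (SE). S100A4 averaged 4.08 ± 0.58 on day 7 and 3.33 ± 0.54 on day 0 in neutrophils, against -1.22 to -0.78 on day 7 and -1.24 to 0.41 on day 0 in liver, differences of 5.08 ± 0.36 and 3.96 ± 0.45. Both genes had neutrophil and liver arrays that did not overlap on either day, although the liver of animal 61 stood out for S100A4 on day 0 (0.41, against -1.04 and -1.24 in animals 58 and 66).

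S100A7 was measured on all 8 neutrophil arrays, where it spanned -2.57 to -0.31 on day 7, against -2.48 to -1.35 on day 0. In liver the spot did not clear the background on any of the 3 arrays of day 7, and did so on 2 of 3 on day 0. Its neutrophil mean was at least 48.2-fold higher than the liver mean on day 7 (fitted difference 6.86 ± 0.64, SE; limma adjusted p = 2.18e-05). This bound sets the mean of the bright group against the mean of, per liver array, the higher of the probe's own signal and the lowest signal among probes well above background. On day 0 the difference was 4.64 ± 0.36 (adjusted p = 4.72e-06 by limma). With normexp background correction and quantile normalization it was 2.92 on day 7 and 2.04 on day 0. S100A10, the annexin A2 partner, had the smallest difference of the 6, 1.91 ± 0.65 on day 7 (adjusted p = 0.0270 by limma) and 1.45 ± 0.35 on day 0 (adjusted p = 0.00492). Its neutrophil levels were 2.29, 2.27, 1.94 and 3.96 on day 7 and 2.04, 1.77, 2.58 and 2.50 on day 0, against liver levels of -0.55, 0.86 and 1.80 on day 7 and 0.03, 0.83 and 1.46 on day 0. The lowest neutrophil array and the highest liver array were thus close on both days. Its day 7 call was lost without liver animal 58 (1.29, adjusted p = 0.109), without liver animal 61 (1.99, 0.0574) and with quantile normalization (1.75, 0.0501).

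The remaining 4 members were lower in neutrophils than in liver. S100A14, which is expressed mainly in epithelia, averaged -3.96 ± 0.49 on day 7 and -3.75 ± 0.17 on day 0 in neutrophils (SD, n = 4), against 0.13 ± 0.29 on day 7 and 0.09 ± 0.39 on day 0 in liver (SD, n = 3). The differences were -4.09 ± 0.33 and -3.84 ± 0.22 (SE), and no neutrophil array came near a liver array. S100A16, its neighbour on the chromosome, differed by -3.09 ± 0.26 on day 7 and -2.87 ± 0.15 on day 0. The liver levels of S100A16 were the tightest of the family, 1.07 to 1.23 on day 7 and 1.20 to 1.24 on day 0. S100A13, the third gene of that run, differed by -1.87 ± 0.37 on day 7 (limma adjusted p = 0.00177) and by -2.78 ± 0.32 on day 0 (5.50e-05).

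S100B was near the detection limit in neutrophils. Of the 4 arrays of day 7 it cleared the background on 1, that of animal 26 at -3.16, with the others between -6.79 and -5.71, and on none of the 4 day 0 arrays. In liver all 6 arrays measured it, at -3.81, -2.49 and -2.31 on day 7 and at -3.66, -1.61 and -2.67 on day 0 in animals 58, 61 and 66. The fitted day 7 difference, which includes the 3 neutrophil values not well above background, was -2.54 ± 0.81 (SE; limma adjusted p = 0.0212), and the single measured neutrophil array overlapped the liver range. This day 7 call was lost without neutrophil animal 25 (-2.35, adjusted p = 0.0554), without neutrophil animal 32 (-2.08, 0.0548), without liver animal 61 (-2.35, 0.0662) and without liver animal 66 (-2.26, 0.0724). On day 0 the liver mean was at least 8.45-fold higher than the neutrophil mean (fitted difference -3.67 ± 0.44; adjusted p = 7.55e-05).

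Counted together, 10 of 10 S100 genes passed the threshold (limma, Benjamini-Hochberg adjusted p under 0.05 over all probes) on each day, 6 higher and 4 lower in neutrophils. Such calls were common: on day 7, 69.0% of all probes tested passed (35.1% higher, 34.0% lower), and on day 0, 83.1% (43.4% higher, 39.7% lower). S100A7 and S100B were tested only through the tissue where they were higher, since the other tissue had arrays not well above background. Where every array had to be well above background, 8 of 8 tested genes passed on each day, 5 higher and 3 lower. Of all probes so tested, 4650 of 7262 passed on day 7 and 7213 of 8758 on day 0. The groups did not overlap for 9 of the 10 genes on day 7, all but S100B, and for 10 of 10 on day 0, against 72.0% and 82.5% of all probes on those days. What set S100A8 and S100A12 apart was the size of the difference. The median difference of the 10 genes was 3.50 on day 7 and 2.70 on day 0, beside 0.03 and 0.12 over all probes tested, whose 99th percentiles were 7.20 and 7.26. With normexp and quantile normalization the median of the 10 was 2.30 on day 7 and 1.57 on day 0. For the 6 genes higher in neutrophils the group means ran, from high to low, neutrophils day 7, neutrophils day 0, liver day 0 and liver day 7. Only the step between neutrophils and liver passed a test.

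**Figure D2:**
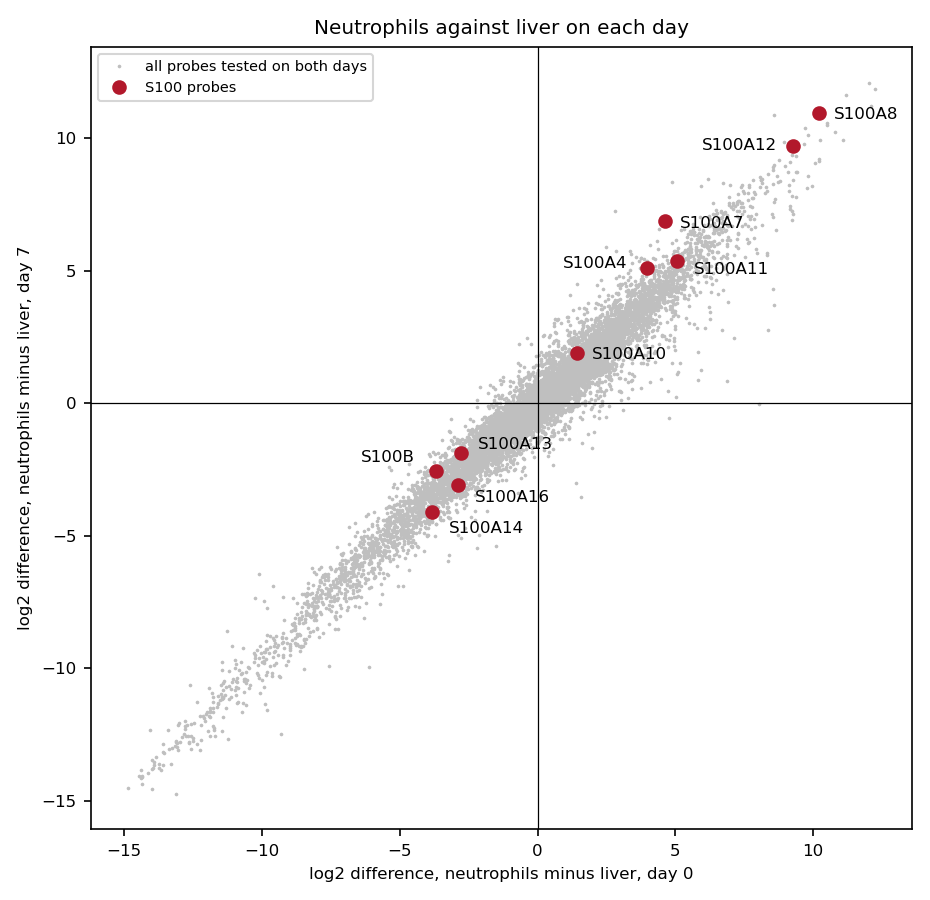
Log2 difference between neutrophils and liver on day 7 (y axis) against that on day 0 (x axis) for all probes tested on both days (grey) and the 10 S100 probes (red). S100A8 (10.96 and 10.21) and S100A12 (9.72 and 9.28) lie at the upper end, S100A4, S100A7, S100A10 and S100A11 above 0 on both days and S100A13, S100A14, S100A16 and S100B below 0 on both.

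Between day 7 and day 0, no S100 gene passed in neutrophils. Of the 10 genes 9 were tested, all but S100B, and 0 passed (limma). Of all 9450 probes 0 passed (0%), although 1268 (13.4%) had an unadjusted p under 0.05. The days overlapped for all 9 genes, and did not for 9.43% of all probes. S100A8 changed by -0.48, 0.34, 0.76 and 0.70 on the log2 scale in animals 25, 26, 32 and 34, day 7 minus day 0. It was thus lower on day 7 in animal 25 and higher in the other 3, with a mean of 0.33 ± 0.29 (SE; limma adjusted p = 0.609) and a 95% confidence interval of -0.36 to 1.02. S100A12 changed by -0.33, -0.12, 0.63 and 0.54 in the same animals, lower in 25 and 26 and higher in 32 and 34. Its mean change was 0.18 ± 0.28 (limma adjusted p = 0.774, interval -0.47 to 0.83), and with quantile normalization the mean was slightly below 0, at -0.0061. Before scaling, the S100A8 signal on day 7 was 219773 against 203700 on day 0 in animal 32 and 194855 against 235382 in animal 34. The S100A12 signal was 465552 against 474565 and 424235 against 568973. The log2 75th percentile subtracted was 9.57 against 10.23 in animal 32 and 9.14 against 10.11 in animal 34. Thus S100A12 in both animals, and S100A8 in animal 34, were higher on day 7 only after scaling.

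S100A13 was the member with the smallest p. Its neutrophil levels were -0.55, -1.57, -1.23 and -0.48 on day 7, against -1.51, -2.45, -1.55 and -1.42 on day 0 in animals 25, 26, 32 and 34. It was higher on day 7 in 4 of 4 animals, by 0.32 to 0.96, though the groups overlapped because animal 26 was low on both days. The mean change was 0.77 ± 0.25 (SE; limma, unadjusted 0.0170, adjusted p = 0.322), and 11.3% of all probes tested were likewise higher in every animal.

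The other members moved in several patterns. S100A4 (0.75 ± 0.32, adjusted p = 0.373) and S100A7 (0.71 ± 0.35, adjusted p = 0.413) were higher on day 7 in animals 25, 26 and 34 and lower in animal 32 (limma). S100A10, at 0.39 ± 0.36, was likewise lower in animal 32 alone, by 0.63, and its highest change, 1.46, came from the weak array of animal 34. Without animal 34 its mean change was 0.04. S100A11 had 0.29 ± 0.33 and was lower on day 7 in animal 25 alone, as S100A8 was. S100A14 (-0.22 ± 0.30) and S100A16 (-0.27 ± 0.25) were the members with a negative mean, in 2 and 3 of 4 animals.

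Over the 9 tested genes the median change was 0.33, beside -0.07 over all probes. It was 0.57 without animal 25, 0.19 without animal 32 and 0.21 without animal 34. By animal, the number higher on day 7 was 4 of 9 in animal 25, 6 in animal 26, 6 in animal 32 and 8 in animal 34, beside 39.9, 42.0, 55.3 and 46.4% of all probes tested. The day 7 array of animal 34 was the weak one. The spread between animals was wider on day 7 for all 9 genes, with a median SD of 0.58 on day 7 and 0.24 on day 0. This was shared by the array as a whole: 84.7% of all probes tested had the larger SD on day 7, with median SDs of 0.56 on day 7 and 0.25 on day 0. For S100A8 the SD was 0.65 on day 7 and 0.15 on day 0, and without animal 25 it was 0.25 on day 7 and 0.16 on day 0. Without the weak array's animal 34, 6 of the 9 genes and 67.2% of all probes still had the larger SD on day 7.

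**Figure D3:**
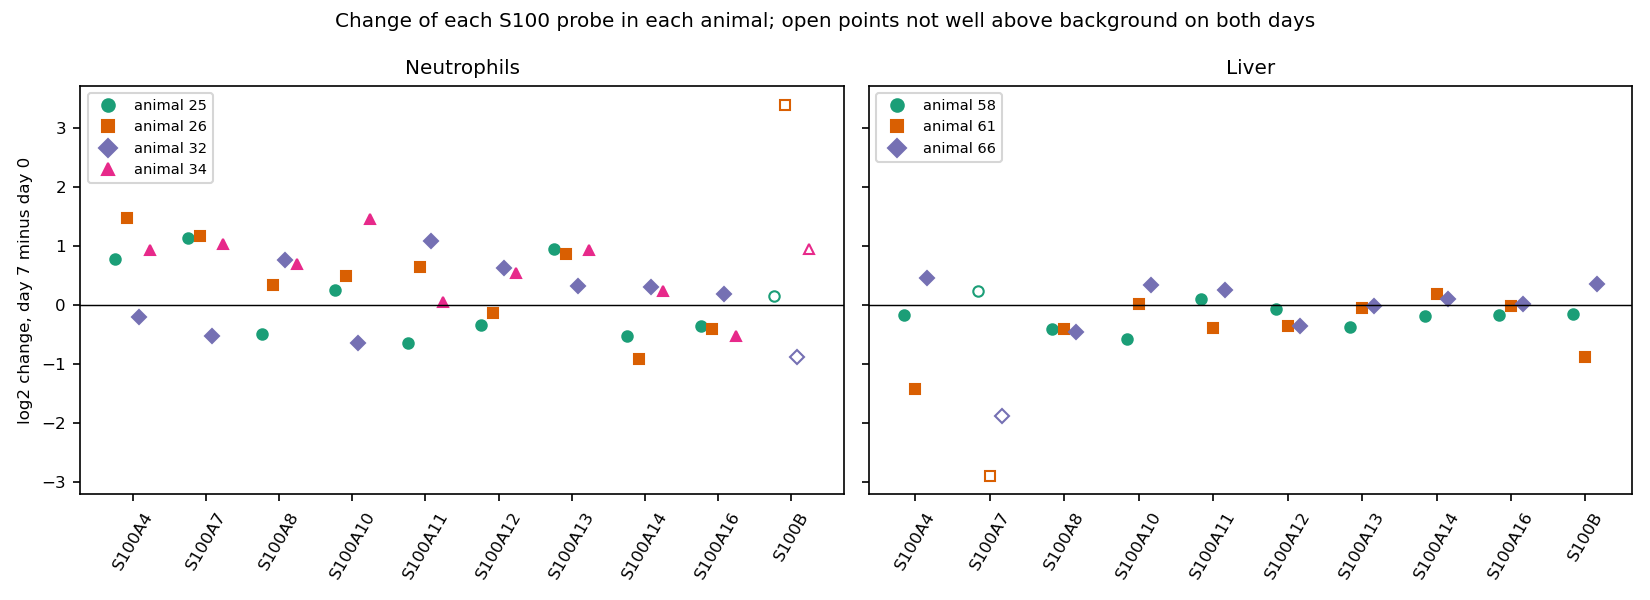
Log2 change, day 7 minus day 0, of each S100 probe (x axis) in each animal (symbols), in neutrophils on the left and liver on the right. Open symbols were not well above background on both days. In neutrophils S100A13 is above 0 in all 4 animals and S100A8 in 3 of 4; in liver S100A8 lies between -0.46 and -0.40 in all 3 animals.

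In liver, 0 of the 9 tested S100 genes passed between day 7 and day 0, beside 3.98% of all 10935 probes (2.67% higher, 1.31% lower; 17.9% at an unadjusted p under 0.05). S100A7 was not tested, since neither day had all arrays well above background. S100A8 was lower on day 7 in 3 of 3 animals, by -0.41, -0.40 and -0.46 in animals 58, 61 and 66. The mean change was -0.42 ± 0.10 (SE; limma, unadjusted 0.00823, adjusted p = 0.108), and 22.9% of all probes tested were lower in every liver animal. The levels of the 2 days overlapped, for it and for the other 8, while 15.3% of all probes had days that did not overlap. S100A12 was also lower in 3 of 3 animals, by -0.07, -0.35 and -0.35 (mean -0.26 ± 0.11, adjusted p = 0.345 by limma).

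The change in liver depended on where a probe lies on the array. The S100A8 spot is in row 181 of 192, and the 886 tested probes in rows 177 to 192 had a median liver change of -0.38, against -0.04 in rows 41 to 152 and 0.53 in rows 1 to 16. With a smooth trend along the rows of each array removed, the change of S100A8 in liver was -0.07 ± 0.11 (SE; limma adjusted p = 0.850). S100A4, in row 179, had -0.38 ± 0.37 before and -0.08 ± 0.34 after this step, and its animals differed widely, at -0.17, -1.42 and 0.46 in 58, 61 and 66. S100A12, in row 147, kept -0.17 ± 0.12. In neutrophils the same 3 bands had medians of -0.09, -0.06 and -0.05, and S100A8 had 0.37 with the trend removed. The other liver changes were small: S100B -0.22 ± 0.25, S100A13 -0.14 ± 0.12, S100A10 -0.07 ± 0.20, S100A16 -0.05 ± 0.10, S100A11 -0.01 ± 0.16 and S100A14 0.04 ± 0.12. The 95% confidence interval of S100A16 ran from -0.32 to 0.22, the narrowest range of change after that of S100A8.

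**Figure D4:**
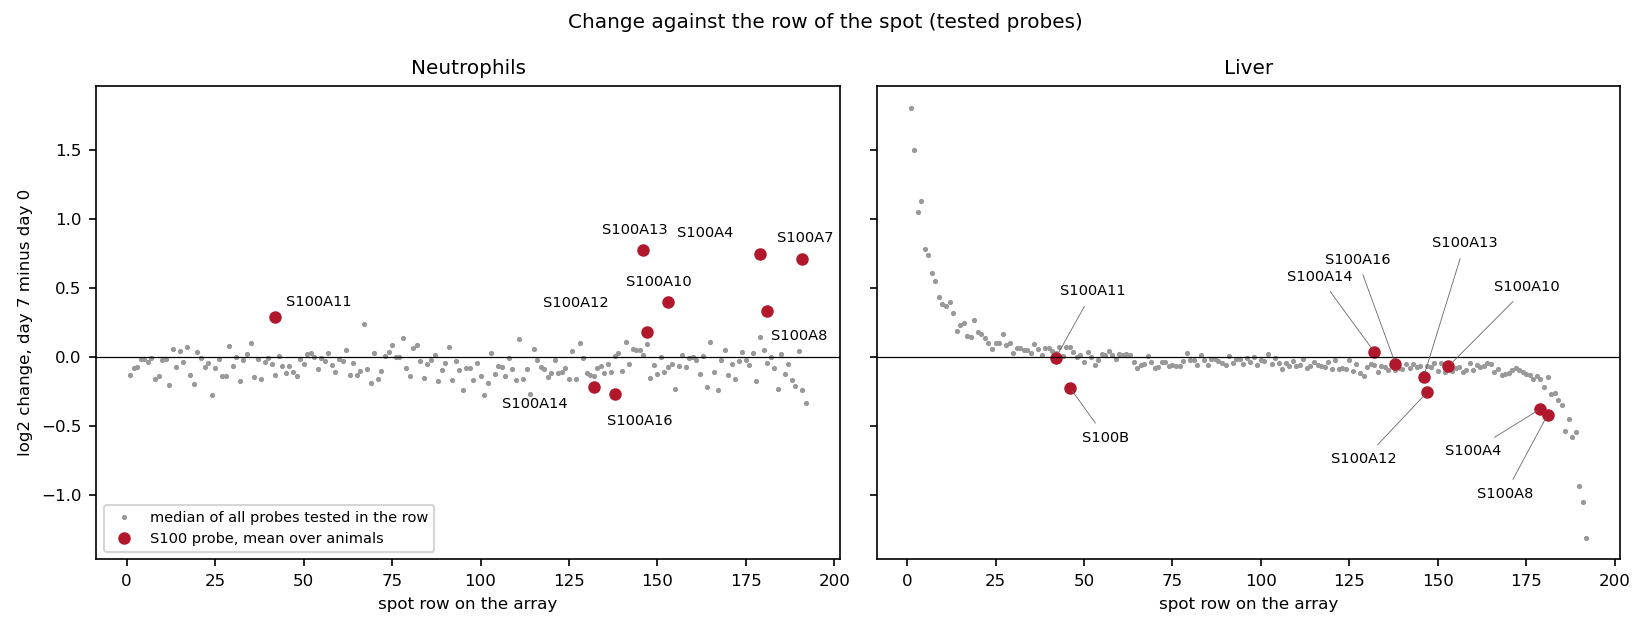
Log2 change, day 7 minus day 0 (y axis), against the row of the spot on the array (x axis), in neutrophils on the left and liver on the right. Grey points are medians of all probes tested in a row and red points are S100 probes, means over 4 animals in neutrophils and over 3 in liver. In liver the row medians climb at the low rows and drop at the high rows, where S100A4 and S100A8 lie at -0.38 and -0.42.

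The changes in neutrophils and liver were set against each other in 1 model over all arrays. Of the 8 S100 genes tested in both tissues 0 passed, beside 1.17% of all 8841 probes (13.5% at an unadjusted p under 0.05). S100A13, higher in 4 of 4 neutrophil animals and lower in 3 of 3 liver animals, had the smallest p, with a difference of 0.92 ± 0.28 (SE; limma, unadjusted 0.00953, adjusted p = 0.181). S100A4 had 1.13 ± 0.53 (adjusted p = 0.405), S100A8 0.75 ± 0.34 (0.394) and S100A12 0.44 ± 0.32 (0.590, limma). With the row trend removed the S100A8 difference was 0.44, and S100A13 was lower in liver in 1 of 3 animals only, with changes of -0.28, 0.06 and 0.06 in 58, 61 and 66.

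The receptors and binding partners of S100A8, S100A9 and S100A12 included genes higher and genes lower in neutrophils than in liver. Of 9 with a probe, from a list of 10, 5 were higher and 3 lower in neutrophils on each day. Their median difference was 3.39 on day 7 and 4.11 on day 0. Over all probes tested, 35.1% were higher and 34.0% lower on day 7, and 43.4% and 39.7% on day 0. AGER, encoding RAGE, had 5.69 ± 0.26 on day 7 and 5.33 ± 0.21 on day 0. TLR4 had 6.50 ± 0.51 and 5.99 ± 0.26 on those days, and LY96, its co-receptor MD-2, had 6.36 ± 0.32 and 5.67 ± 0.21. CD14, the third part of that complex, was lower in neutrophils, by -3.16 ± 0.42 on day 7 and -3.49 ± 0.19 on day 0. The scavenger receptor CD36 was well above background on none of the 4 neutrophil arrays of day 7 and on 1 of 4 on day 0, and its liver mean on day 7 was at least 93.7-fold higher than the neutrophil mean (limma adjusted p = 8.31e-07). All 7 subunits of the NADPH oxidase, the enzyme that makes superoxide, were higher in neutrophils on both days, with median differences of 4.87 and 5.41. Among them NCF4 had 6.27 ± 0.26 on day 7 and 6.21 ± 0.19 on day 0.

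Of 12 transcription factors known to act on S100A8 and S100A9 in myeloid cells, 5 had a named probe. Higher in neutrophils were 2 of 5 on day 7 and 5 of 5 on day 0, beside 35.1% and 43.4% of all probes tested. The shares of all probes lower in neutrophils were 34.0% and 39.7%. RARA, the retinoic acid receptor alpha, had 4.12 ± 0.41 on day 7 and 4.59 ± 0.20 on day 0. CEBPB had 3.17 ± 1.02 and 4.82 ± 0.30, and its level on the weak day 7 array of animal 34 was -1.45, against 2.19 to 3.44 in the other day 7 neutrophil samples. Without animal 34, 5 of 5 of these factors were higher in neutrophils on day 7, beside 4461 of all 10760 probes tested. Inflammatory genes that lie downstream of TLR4 through NF-kB were higher for 8 and lower for 3 of 13 tested on day 7, and higher for 11 and lower for 3 of 14 on day 0. IL1B (7.06 on day 7, 7.62 on day 0) and IL1RN (7.08 and 7.22), the cytokine interleukin-1 beta and its receptor antagonist, were among the larger ones, with the chemokine gene CXCL8 (6.39 and 7.26). Of 12 annexins and other S100 partners, 8 had a named probe. These were higher for 4 and lower for 2 of 8 on day 7, and higher for 4 and lower for 3 on day 0. ANXA1, the S100A11 partner, had 7.89 ± 0.38 and 7.27 ± 0.23, while ANXA2, the S100A10 partner, had -0.19 ± 0.39 on day 7 (limma adjusted p = 0.688) and was lower on day 0, at -1.02 ± 0.37 (0.0296).

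Between the days, 0 members of these 5 lists passed in either tissue (limma; 0% of all probes in neutrophils and 3.98% in liver). In neutrophils the transcription factors had a median change of -0.80 with 0 of 5 positive, and the NF-kB targets -0.38 with 3 of 13 positive, beside -0.07 over all probes. Without animal 34 these medians were -0.32 (1 of 5 positive) and -0.16 (3 of 13), and without animal 32 the NF-kB targets had -0.61 (0 of 13). The receptors had -0.03 and the NADPH oxidase -0.21. Among the genes of these lists tested in neutrophils ANXA2 had the largest positive change, 1.20 ± 0.27 (adjusted p = 0.298 by limma), with 3.58, 2.99, 3.30 and 4.62 on day 7 against 2.68, 1.39, 2.55 and 3.07 on day 0 in animals 25, 26, 32 and 34. It was higher in all 4 animals, including animal 32, where its partner S100A10 was lower. In liver the 5 medians lay between -0.19 and 0.10.

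Marker genes of cell types were read beside these results. Of 6 neutrophil markers with a probe, 5 were higher in the neutrophil samples on both days, beside 35.1% of all probes tested on day 7 and 43.4% on day 0. CXCR1, an interleukin-8 receptor, was well above background on all 8 neutrophil arrays, at levels of 4.84 to 6.29 on day 7 and 5.20 to 5.68 on day 0. LTF, the granule protein lactoferrin, was not higher: it had 0.62 ± 0.74 on day 7 and was lower on day 0, at -2.10 ± 0.44. In liver CXCR1 cleared the background in animal 61 alone, at -6.19 on day 7 and -6.29 on day 0, and that liver also had the highest S100A8 and S100A12. The neutrophil markers summed in liver to log2 levels of 1.24, 1.27 and 1.46 on day 7 in animals 58, 61 and 66. On day 0 they summed to 1.86, 3.25 and 1.82 in the same animals. Animal 61 was thus highest on day 0, but animal 66 was highest on day 7. LTF in liver was lower on day 7 in 3 of 3 animals, at most 0.18 on day 7 against up to 3.01, in animal 61, on day 0 (change -2.11 ± 0.48, adjusted p = 0.109 by limma). The part of these markers in the liver levels of S100A8 and S100A12 was not tested.

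The neutrophil samples also held transcripts of other blood cells. All 4 T cell markers were higher there than in liver on both days. Of all probes tested, 35.1% were higher in neutrophils on day 7 and 43.4% on day 0. In neutrophils the 4 T cell markers summed to 1.85 to 2.33 on day 7, against 0.99 to 1.67 on day 0. CD3E contributed most to these sums, with neutrophil means of 1.88 on day 7 and 1.11 on day 0. The means on those days were -2.24 and -2.73 for CD3D, -1.85 and -1.91 for CD2, and -2.41 and -2.54 for CD5. The mean log2 level of the 4 markers fell in animal 34, from -1.35 on day 0 to -2.13 on day 7. It rose in each of the other neutrophil animals. CCR3, an eosinophil receptor and the sole eosinophil marker with a probe, had neutrophil levels of -0.97 to -0.42 on day 7, against 0.19 to 1.89 on day 0, without overlap (change -1.55 ± 0.33, adjusted p = 0.298 by limma). All 6 hepatocyte markers were lower in neutrophils, with a median difference of -12.05 on day 7 and -11.42 on day 0 (-10.81 and -10.40 with the 5 and 3 genes not well above background on any neutrophil array set at their bound). Of all probes tested, 34.0% were lower in neutrophils on day 7 and 39.7% on day 0. In liver all 6 skeletal muscle markers rose on day 7, with a median change of 6.80 (5.67 with the 4 genes that cleared the background on 0 of 3 day 0 arrays set at their bound) and summed levels of 1.52 to 3.55 on day 7, against -5.99 to -3.22 on day 0. All 6 passed (limma), beside 2.67% of all probes tested that were higher on day 7 in liver. All 6 were tested only through their day 7 arrays. Without liver animal 58, 0 of these 6 and 0 of all 11139 probes tested passed (limma), although all 6 were positive, with a median change of 7.14. The part of T cell, eosinophil and muscle transcripts in the S100 values was not tested.

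Within the 8 neutrophil arrays S100A8 and S100A12 moved together, with a Pearson correlation of 0.93, and within the 6 liver arrays with one of 0.97. These arrays are pairs from 4 and 3 animals, so the values describe them only. S100A8 and S100A11 had 0.85 in neutrophils and 0.49 in liver. In neutrophils S100A4 had 0.90 with S100A7, 0.88 with S100A13, 0.80 with S100A10 and -0.96 with S100A16. S100A4 and S100A8 had 0.25. Over the neutrophil arrays, the named genes most like the mean of S100A8 and S100A12, of 3496 measured on all 8, were HYI (0.97), CRX (0.97), KRT8 (0.97), PPP2R3C (0.96) and PGK1 (0.96), where the median gene had 0.08 and the 95th percentile was 0.79. PGK1, a glycolytic enzyme, had 3.66, 4.08, 4.56 and 4.64 on day 7 and 4.04, 4.09, 3.97 and 4.40 on day 0 in animals 25, 26, 32 and 34, the same order on day 7 as S100A8. PGK1 was picked by its correlation on these same arrays, so the shared order is no separate result. All these probes share the arrays and their scaling.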

How the data were processed

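Total RNA of 8 neutrophil and 6 liver samples was labelled with Cy3 and hybridised to 1-colour Agilent arrays, per the labels' protocols. The spot intensity used is the processed signal of Agilent Feature Extraction (9.5.1.1 per the file headers, 9.5 per the submitters' processing notes), which the software had background-subtracted. Mean and background intensity columns, deposited uncorrected, served 1 alternative. The log2 values of the authors' deposited value table equal log2 of the same signal minus a constant per array, and that constant differed from the 75th percentile by -0.013 to -0.0043 (correlation 1; the medians of its columns were -3.55 to -2.69). This settles its scale, centring and direction. Other deposited columns, flags and spot rows, are the software's own.

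Control spots were dropped, as were outlier spots, of which an array had 0 to 18, while the 0 to 3 saturated spots of an array stayed in. Values were log2 signal minus the array's 75th percentile. Probes entered a fit where all arrays of 1 compared group, or of a group in both tissues for the difference of changes, were well above background. They were fitted with limma 3.58.1 (R 4.3.3; lmFit, eBayes), with the animal as a block between days, and p-values were adjusted by Benjamini-Hochberg over all probes. The fit was tested on simulated data. Of 15011 probe sequences, 5991 had 1 symbol and 9020 none. Named genes are all S100 members, up to 4 genes per list by smallest p or past the threshold, cell type markers, and the 5 genes most correlated with the mean of S100A8 and S100A12; TLR4 partners, CEBPB, CXCL8, LTF and PGK1 were picked for their values or roles. The members and lists were chosen with earlier results of these data known. The labels give each animal on both days, which pairs its arrays. Deviations of paired arrays correlated at 0.03 to 0.61 in the 4 neutrophil animals and at 0.31 to 0.65 in the 3 liver animals. The number of arrays limits the precision. Alternatives were normexp (offset 50) with quantile normalization, quantile normalization, the table of the authors, a stricter and a looser filter for dim spots, a loess trend along spot rows removed (span 0.3), no block, and each animal left out.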

Additional observations from a re-analysis of the deposited data

Results flagged for a closer look

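S100A13 stood out on both grounds that were checked. In neutrophils on day 0, animal 26 had a level of -2.45, and its gap to the nearest other animal was 0.88 of the whole range of the group. It was the only such value among 20 groups of 4 neutrophil samples, and chance alone gives about 1 in 20 such groups. The day 7 level of the same animal, -1.57, was also the lowest of its group.

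The day 7 minus day 0 change of S100A13 ran in opposite directions, higher in 4 of 4 neutrophil animals (0.96, 0.88, 0.32 and 0.94 in 25, 26, 32 and 34) and lower in 3 of 3 liver animals (-0.37, -0.05 and -0.01 in 58, 61 and 66). After removal of the trend along spot rows, the liver changes were -0.28, 0.06 and 0.06, so that 2 of 3 were no longer lower, while all 4 neutrophil animals were still higher. The difference between the tissues was 0.92 ± 0.28 (SE; limma, adjusted p = 0.181). It lay between 0.78 and 1.07 under the alternatives, and the smallest adjusted p among them was 0.0523, so it missed the threshold in all of them.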

How the results depend on the processing

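The number of S100 genes past the threshold was 0 under every alternative run for both day comparisons and for their difference between tissues, and 8 to 10 of 10 for neutrophils against liver on each day. It was 8 where probes had to be well above background on every array, since S100A7 and S100B then dropped out, and 8 on day 7 without animal 61. Removing the animal block left the count at 0 in neutrophils, in liver and for the difference, and changed no call. Of the 7 single calls lost, all on day 7, S100A10 and S100B are given above. The sign of uncalled changes turned in 11 cases: in neutrophils S100A12 with normexp and quantile or quantile normalization (-0.0061 in both), and in liver S100A10 (0.013) and S100A16 (0.057) with the row trend removed. The others turned with 1 animal left out: S100A14 in neutrophils spanned -0.39 to 0.011, positive without animal 26. In liver, the highest values without animal 61 were S100A4 (-0.80 to 0.14), S100A11 (-0.14 to 0.18) and S100B (-0.51 to 0.10), S100A14 spanned -0.036 without animal 61 to 0.14, and S100A10 (-0.27 to 0.18) and S100A16 (-0.088 to 0.0091) were highest without animal 58. The cause was not tested. Every member has 1 probe, so no other probe could be used. S100B in neutrophils and S100A7 in liver are limited by signal over background, and their differences between the tissues shrank most under normexp with quantile normalization (S100B to -0.92 on day 7 and -1.39 on day 0).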

Other observations

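A probe named MGC127936, described as similar to S100A2 but outside the naming rule, had levels in neutrophils of -4.38 to -3.90 on day 7, against -4.60 to -4.12 on day 0. Its liver levels were 2.58 to 3.14 on day 7, against 2.84 to 3.12 on day 0. S100G, the vitamin D-dependent calbindin of intestine, was well above background on 0 of 8 neutrophil arrays, and on 2 of 3 liver arrays on day 7 (-5.73 to -5.18) and 3 of 3 on day 0 (-4.74 to -4.12).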
